A study of Mus musculus with 6 samples.

Results

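Transcripts of 10 macrophage genes were followed in MuSCs, the stem cells of skeletal muscle, which had been sorted by FACS from injured muscle with a gate set against leukocytes. The genes are Lyz2, Ms4a7, C1qa, C1qb, C1qc, Adgre1, Csf1r, Mrc1, Cd163, and Cd68, and each was matched by its symbol to 1 of the 49671 genes in the data. They were chosen by measured values: their levels in these libraries and their differences between RvD1 and vehicle were known when the genes were picked. Both are therefore given as a description, without a test of the genes as a group.

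All mice were C57BL/6 females, 4 to 6 months old, of which 3 received RvD1 and 3 received vehicle, and each mouse gave 1 RNA-Seq library. In both groups the tibialis anterior (TA) muscles had been injured with 50 μL of 1.2% BaCl2, which destroys myofibers, and the 2 TA muscles of a mouse were pooled at day 3. RvD1, a lipid mediator that acts in the resolution of inflammation, was injected IP every day at 100 ng for 72 hours, and the vehicle was 0.1% ethanol. Neither group carried a genetic modification in the sample labels, and uninjured MuSCs were not analysed here. The labels list a gate that was positive for CXCR4 and β1-integrin and negative for Ter119, CD31, CD45, Sca-1, and CD11b. The study's methods give the same gate without CD31. CD45 marks leukocytes and CD11b marks myeloid cells, so both versions were set against macrophages.

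Macrophages clear dead myofibers after injury and release factors that act on MuSCs. Most depend on signaling through CSF1R, the receptor for CSF1 and IL-34, and on PU.1, a transcription factor of the ETS family encoded by Spi1. Lysozyme (Lyz2) and CD68 belong to their digestive machinery, C1qa, C1qb, and C1qc encode the chains of complement C1q, MRC1 and CD163 are scavenger receptors, and F4/80, the product of Adgre1, is a surface marker. Lyz2 is also transcribed in neutrophils, and Cd68 encodes a lysosomal membrane protein that is not exclusive to macrophages.

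Total expected counts, the RSEM estimates of reads per gene, ranged from 16148026 to 28149176 per library. At these depths 3 counts correspond to between 0.107 and 0.186 CPM (counts per 1000000 counts of a library), and this floor covers counting error only. CPM values below were scaled with TMM factors. The mean correlation of a library with the other 5 lay between 0.974 and 0.984, and RvD1 replicate 1 was lowest. Of the gene lists compared, the myogenic markers had the highest summed level in every library, and Des, the gene of the muscle intermediate filament desmin, was present at 604 ± 37.8 TPM under RvD1 against 580 ± 56.7 TPM under vehicle (SD, n = 3 each). In contrast, the 10 macrophage genes together took between 0.00257% and 0.00735% of a library. All 10 had counts in all 6 libraries, and the smallest value was 2 counts of Adgre1 in RvD1 replicate 3. Since RNA of many cells was pooled, fewer macrophages among the sorted cells and less RNA per macrophage cannot be told apart, nor can the cell that held a transcript be identified.

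Because PU.1 acts at many macrophage promoters, the 250 bases before the RefSeq transcription start were searched for the core of its site, GAGGAA, and for its reverse complement, TTCCTC. RefSeq promoters on GRCm38.p6 were used for 7 of the 10 genes, while C1qa, Adgre1, and Csf1r were not searched. For the 27025 windows of all genes the first listed start was taken, and for the 7 genes that nearest the annotated 5′ end. The core was present in 4 of these 7 windows (C1qb, C1qc, Mrc1, and Cd68) and in 23.1% of all 27025 windows of the same length. It was not in the windows of Lyz2, Ms4a7, and Cd163, which says only that these letters are missing there. Searched on both strands in the same way, and counted separately with overlaps allowed, the C/EBP motif TTGCNNCAA was in 0 of 7 windows (1.78% of all), the AP-1 motif TGANTCA in 1 of 7 (6.87% of all), and the E-box CANNTG in 6 of 7 (66.0% of all). A match is a description of the sequence and not evidence of binding. To put sequence beside the values, 4 windows are shown, 2 of genes whose levels did not overlap between groups (Ms4a7 and C1qb) and 2 of genes whose levels did (Cd68 and Cd163). Capitals mark the PU.1 core on either strand. The windows are chr19:11336147-11336396 on the minus strand for Ms4a7, chr4:136886201-136886450 on the minus strand for C1qb, chr11:69666171-69666420 on the minus strand for Cd68, and chr6:124304401-124304650 on the plus strand for Cd163, each written 5′ to 3′ along its gene.
Ms4a7: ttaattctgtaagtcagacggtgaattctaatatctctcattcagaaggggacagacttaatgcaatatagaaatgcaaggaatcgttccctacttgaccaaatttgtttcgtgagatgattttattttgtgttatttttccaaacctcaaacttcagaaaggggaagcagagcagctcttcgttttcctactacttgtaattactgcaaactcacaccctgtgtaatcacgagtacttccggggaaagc
C1qb: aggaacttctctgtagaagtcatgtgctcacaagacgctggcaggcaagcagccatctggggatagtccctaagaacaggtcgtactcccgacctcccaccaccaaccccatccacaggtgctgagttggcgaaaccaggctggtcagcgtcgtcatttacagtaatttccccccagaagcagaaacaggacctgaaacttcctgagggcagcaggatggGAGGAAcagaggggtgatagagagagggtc
Cd68: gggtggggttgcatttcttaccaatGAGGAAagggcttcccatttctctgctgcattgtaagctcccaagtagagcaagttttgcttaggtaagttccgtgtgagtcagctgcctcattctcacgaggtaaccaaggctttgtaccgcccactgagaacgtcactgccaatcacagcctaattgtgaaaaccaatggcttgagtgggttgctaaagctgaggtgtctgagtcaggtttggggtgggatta
Cd163: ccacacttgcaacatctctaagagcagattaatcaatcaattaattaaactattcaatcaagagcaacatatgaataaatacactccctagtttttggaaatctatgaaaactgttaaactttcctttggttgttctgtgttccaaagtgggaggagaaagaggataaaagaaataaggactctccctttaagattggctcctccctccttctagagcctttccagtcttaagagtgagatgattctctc
In C1qb the core begins 30 bases before the start site and in Cd68 it begins 225 bases before it.

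Compared per transcript length, Lyz2 was by far the most abundant of the 10, with a mean of 34.6 TPM over the 6 libraries. Cd68 followed at 8.07 TPM, and the ranges of these genes over the libraries did not overlap. Below them came C1qb at 4.39 TPM, Ms4a7 at 2.08, C1qc at 1.83, Cd163 at 1.39, C1qa at 1.25, Csf1r at 1.2, Adgre1 at 0.857, and Mrc1 at 0.605 TPM. From Cd68 downward, the ranges of every pair of neighbors overlapped, so their order is not resolved by the spread between libraries. Some neighbors nevertheless kept their order within libraries: Cd68 exceeded C1qb and C1qb exceeded Ms4a7 in 6 of 6, whereas Ms4a7 exceeded C1qc in 2 of 6.

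**Figure D1:**
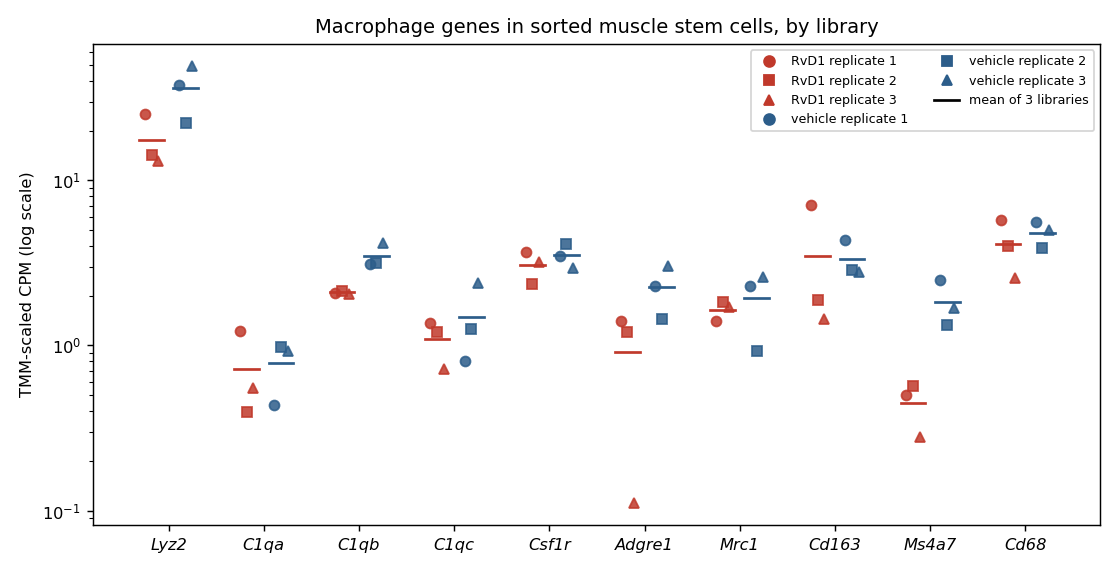
TMM-scaled CPM of each macrophage gene (log axis) in the 3 RvD1 libraries (red) and the 3 vehicle libraries (blue), with symbols for replicates 1 to 3 and a line at each group's mean. The groups are apart for Ms4a7 and C1qb and nearly touch for Adgre1, where RvD1 replicate 3 lies at 0.111 CPM, while the other 7 genes overlap.

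Between RvD1 and vehicle, no gene of the 14494 tested passed the adjusted threshold of 0.05 in edgeR's quasi-likelihood test (0% of genes), and the smallest adjusted p was 0.971. At an unadjusted p under 0.05, edgeR listed 503 genes (3.47%), among them 3 of the 10 macrophage genes. DESeq2, limma-voom with or without surrogate variables removed, and edgeR with other scaling factors also called 0 genes. Without a filter on low counts, edgeR called 12 of 26641 genes (0.045%), and Lyz2 was 1 of these. By direction, 9 of the 10 macrophage genes had a negative log2 fold change, as had 46.5% of genes tested. The log2 fold change was below -1 for 3 of them, Ms4a7, Adgre1, and Lyz2, and for 0.483% of genes tested. All 3 RvD1 libraries lay under all 3 vehicle libraries for Ms4a7, C1qb, and Adgre1, which was the case for 4.84% of genes tested, and no macrophage gene showed the opposite order, which 4.77% of genes did. Since this contrast was known when the genes were picked, nothing is read from these shares. The median log2 fold change was -0.33 over the 10 genes and 0.01 over all genes tested. Without RvD1 replicate 1, 2, or 3 the former was -0.73, -0.41, or -0.25. Without vehicle replicate 1, 2, or 3 it was -0.56, -0.56, or -0.26. All 10 passed the filter on low counts, but Ms4a7 and Adgre1 did so through the vehicle libraries: its level, 10 counts at the median depth or 0.545 CPM, was reached by Ms4a7 in 1 of 3 RvD1 and 3 of 3 vehicle libraries and by Adgre1 in 2 of 3 and 3 of 3.

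Ms4a7 encodes a membrane protein of macrophages and had the largest log2 fold change of the 10 genes. Here and in what follows, the values of a gene are listed for replicates 1, 2, and 3 of each group in turn. Its expected counts were 11, 16, and 5 (RvD1) against 40, 23, and 31 (vehicle). Scaled for depth, these were 0.498, 0.571, and 0.277 CPM (RvD1) against 2.48, 1.32, and 1.68 CPM (vehicle). Every RvD1 library lay below every vehicle library, and this held for TMM-scaled CPM, CPM with RLE factors, CPM on library totals, and TPM. The mean level was 0.953 ± 0.335 TPM under RvD1 against 3.21 ± 0.940 TPM under vehicle (SD, n = 3 each), and the log2 fold change of CPM was -1.98 (SE 0.44), or -2.20 to -1.71 when single libraries were left out. The gene lies on chromosome 19 (11321039 to 11336146, minus strand, GRCm38), and no other annotated gene overlaps it.

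Lyz2 had the most counts, from 235 to 909 per library, and its groups overlapped. Levels were 25.1, 14.2, and 13.04 CPM (RvD1) against 37.7, 22.2, and 49.3 CPM (vehicle). Vehicle replicate 2 thus lay below RvD1 replicate 1, and the highest and lowest libraries differed 3.79-fold. The means were 23.4 ± 9.41 TPM under RvD1 against 45.9 ± 17.0 TPM under vehicle (SD, n = 3 each), and the log2 fold change was -1.06 (SE 0.32). Leaving out single libraries gave values between -1.41, without RvD1 replicate 1, and -0.78, without vehicle replicate 3. RSEM can divide reads between Lyz2 and its close paralog Lyz1, to which it assigned at most 5.32 counts in a library.

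Cd68, the other abundant gene of the lysosome, had overlapping groups. Its levels were 5.75, 3.996, and 2.55 CPM (RvD1) against 5.57, 3.91, and 4.996 CPM (vehicle). The highest value belonged to an RvD1 library, as did the lowest. The mean was 7.56 ± 2.89 TPM under RvD1 against 8.58 ± 2.13 TPM under vehicle (SD, n = 3 each), with a log2 fold change of -0.23 (SE 0.32) that became 0.01 without RvD1 replicate 3.

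The C1q genes lie next to each other on chromosome 4 and encode the subunits of a single complex. Their values are given separately, and differences between these genes were not tested. For C1qb, which spans 136880129 to 136886187 on the minus strand, the levels were 2.08, 2.14, and 2.05 CPM (RvD1) against 3.10, 3.16, and 4.18 CPM (vehicle). The RvD1 libraries were tightly grouped and all lay below the vehicle libraries on each of the 4 scales. Its means were 3.42 ± 0.0635 TPM (SD, n = 3) and 5.36 ± 0.851 TPM (SD, n = 3) for RvD1 and vehicle, and its log2 fold change was -0.73 (SE 0.26). C1qa had 27, 11, and 10 counts (RvD1) against 7, 17, and 17 (vehicle), or 1.22, 0.392, and 0.555 CPM against 0.434, 0.977, and 0.923 CPM. Its highest library was an RvD1 library, its group means were both 1.25 TPM (SD 0.792 with RvD1 and 0.455 with vehicle, n = 3 each), and its log2 fold change of -0.12 (SE 0.55) was positive in 4 of 6 fits with 1 library left out, reaching 0.20 without RvD1 replicate 2. C1qc stood between these, at 1.36, 1.21, and 0.721 CPM (RvD1) against 0.805, 1.26, and 2.39 CPM (vehicle). The groups of C1qc overlapped, and its log2 fold change of -0.43 (SE 0.47) became 0.09 without vehicle replicate 3. The ratio of C1qb to C1qa in TPM was 1.62, 5.2, and 3.52 (RvD1) against 6.75, 3.08, and 4.31 (vehicle), so the genes of this complex did not keep a fixed proportion at counts this low.

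Adgre1, the gene of F4/80, was low in a single RvD1 library. Counts were 31, 34, and 2 (RvD1) against 37, 25, and 56 (vehicle), which gave 1.403, 1.21, and 0.111 CPM (RvD1) against 2.29, 1.437, and 3.04 CPM (vehicle). The groups did not overlap in TMM-scaled CPM, where the highest RvD1 and the lowest vehicle library were nearly equal, and they did overlap in TPM and in CPM on library totals. On those scales 2 of the 10 genes, Ms4a7 and C1qb, remained without overlap. The 2 counts of RvD1 replicate 3 lie under the floor of 3 counts, so no fold is given for this library. In TPM, Adgre1 ranged from 0.22 to 1.48 over the 6 libraries, and Ms4a7 from 0.57 to 4.26. The log2 fold change of -1.27 (SE 0.65) depended on this library and was -0.79 without it. In TPM the means were 0.597 ± 0.328 (RvD1) and 1.12 ± 0.393 (vehicle; SD, n = 3 each).

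Csf1r encodes the receptor on which most macrophages depend for survival. It had 3.68, 2.37, and 3.18 CPM (RvD1) against 3.48, 4.11, and 2.93 CPM (vehicle), a 1.74-fold range from the lowest to the highest library. Its groups overlapped, at 1.11 ± 0.268 TPM under RvD1 against 1.29 ± 0.288 TPM under vehicle (SD, n = 3 each), with a log2 fold change of -0.20 (SE 0.28) that was -0.04 without RvD1 replicate 2. Csf1r overlaps Hmgxb3 on the other strand and Mir6983 on its own, and some of its counts were fractional, so its level is uncertain to the extent that reads were shared. Transcripts of its ligands were far more abundant: Csf1 was present at 66.2 ± 6.03 TPM under RvD1 against 58.5 ± 1.75 TPM under vehicle (SD, n = 3 each), and Il34 at 12.7 ± 2.59 and 11.3 ± 1.15 TPM (SD, n = 3 each). Neither ligand passed the threshold (adjusted p = 0.971 and 0.977, edgeR), and their log2 fold changes were 0.06 (SE 0.10) and 0.09 (SE 0.22).

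The scavenger receptors showed no separation of the groups. Mrc1, which encodes the mannose receptor CD206, had 1.403, 1.82, and 1.72 CPM (RvD1) against 2.29, 0.920, and 2.61 CPM (vehicle). The RvD1 libraries lay inside the range of the vehicle libraries, and the log2 fold change of -0.23 (SE 0.41) became 0.04 without vehicle replicate 3. Mir511 lies within Mrc1 on the same strand. Cd163, the receptor for hemoglobin bound to haptoglobin, had 7.11, 1.89, and 1.44 CPM (RvD1) against 4.34, 2.87, and 2.77 CPM (vehicle). RvD1 replicate 1 was higher and the other RvD1 libraries were lower than every vehicle library. Cd163 was the exception among the 10 with a positive log2 fold change, 0.07 (SE 0.56), and this value rested on RvD1 replicate 1: without it the log2 fold change was -0.98. Cd163 was also negative under 6 of 10 other settings of the analysis. Its mean was 1.43 ± 1.39 TPM under RvD1, where the SD was nearly as large as the mean, and 1.34 ± 0.336 TPM under vehicle (SD, n = 3 each).

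Summed over the 10 genes, macrophage transcripts amounted to 49.6, 29.8, and 25.6 CPM (RvD1) against 62.4, 42.2, and 74.9 CPM (vehicle). RvD1 replicate 1 exceeded vehicle replicate 2, and their exact 95% Poisson intervals of 46.7 to 52.6 and 39.2 to 45.3 CPM, which cover counting error only, did not meet. The interval of RvD1 replicate 2, 27.9 to 31.9 CPM, lay apart from that of RvD1 replicate 1 as well, so libraries of 1 group differed by more than counting error. The means were 35.0 ± 12.8 CPM under RvD1 against 59.8 ± 16.5 CPM under vehicle (SD, n = 3 each), with a difference of -0.79 in mean log2 level. Lyz2 carried 50.6%, 47.7%, and 50.8% of the sum (RvD1) against 60.3%, 52.6%, and 65.9% (vehicle). When Lyz2 was left out, the sums were 24.5, 15.6, and 12.6 CPM (RvD1) against 24.8, 19.97, and 25.5 CPM (vehicle), and the log2 difference was -0.46. In these 9 genes RvD1 replicate 1 was level with vehicle replicate 1, and RvD1 replicates 2 and 3 lay below every vehicle library.

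**Figure D2:**
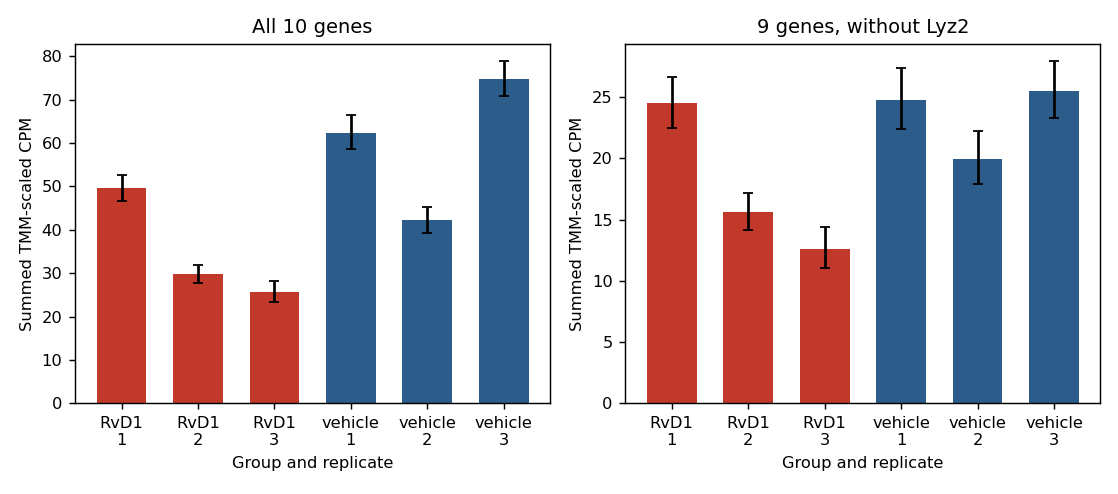
Summed TMM-scaled CPM of all 10 macrophage genes (left) and of the 9 without Lyz2 (right) in each RvD1 (red) and vehicle (blue) library, with bars from 0 and error bars for the exact 95% Poisson interval. RvD1 replicate 1 reaches 49.6 CPM on the left and stands above vehicle replicate 2 in both panels.

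Single libraries were high or low for several of the genes at once. RvD1 replicate 3 was the lowest of the 6 libraries for 7 genes (Lyz2, Ms4a7, C1qb, C1qc, Adgre1, Cd163, and Cd68). Vehicle replicate 3 was the highest for 5 (Lyz2, C1qb, C1qc, Adgre1, and Mrc1), and RvD1 replicate 1 was the highest for 3 (C1qa, Cd163, and Cd68). Within groups, the genes were loosely related. Over the 45 gene pairs, the median Pearson r of the deviations from the group means in 6 libraries was 0.36. Values ran from -0.70 for Csf1r with Mrc1 to 0.90 for Adgre1 with Cd68. The latter includes RvD1 replicate 3, where Adgre1 had 2 counts, under the floor, and Cd68 was also lowest. All genes share the same 6 libraries and their depth. Outside the 10 genes, the 5 whose log2 CPM followed the log2 summed level most closely over the 6 libraries, out of 14484 compared, were Gm9762 (r = 0.994), Sept6 (0.980), Podxl (0.972), Thnsl1 (0.967), and Trim45 (0.964). None of these is in a gene list used here, and 12 of the 14484 genes had an r of at least 0.95.

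**Figure D3:**
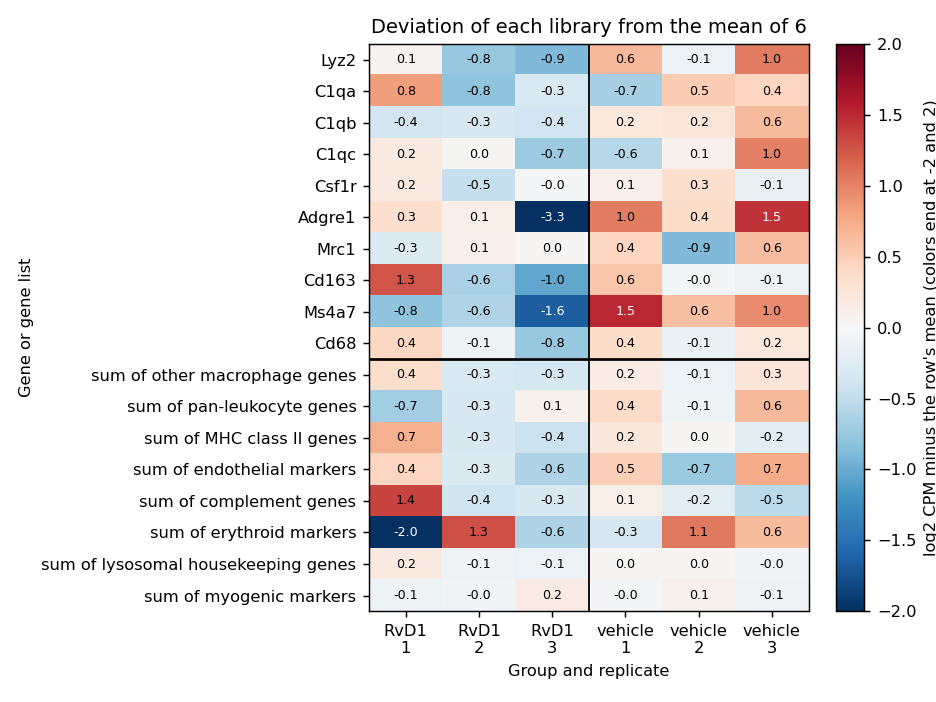
Log2 CPM of each macrophage gene and of the sums of several other gene lists (rows) in each library (columns), minus the row's mean over the 6 libraries. Color runs from blue (lower) to red (higher), with the value in each cell. The CSF1R ligand, neutrophil, lymphocyte, and fibro-adipogenic lists are not shown. RvD1 replicate 3 holds the lowest values for 7 of the 10 genes, and RvD1 replicate 1 is high for Cd163, C1qa, and complement genes.

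Other genes of macrophages were examined as a list of 30, of which 18 passed the filter, and 4 had no more than 3 counts in any library, among them Marco, which was at 0 throughout. None was called. Of the 18, 14 had a negative and 4 a positive log2 fold change, and the median was -0.44, against 0.01 over all genes tested. This median was -0.19 without RvD1 replicate 3 and -0.28 and -0.24 without vehicle replicates 1 and 3. Ctss, the gene of cathepsin S, was at 2.99, 2.28, and 2.22 CPM (RvD1) against 5.39, 5.17, and 8.63 CPM (vehicle). These groups did not overlap, and the log2 fold change was -1.36 (SE 0.28) at an adjusted p of 0.971 in edgeR. Tyrobp, which encodes the signaling adaptor DAP12, the Fc receptor gene Fcgr3, and Cybb, an NADPH oxidase subunit, also had no overlap. Their log2 fold changes were -1.04 (SE 0.38), -1.18 (SE 0.44), and -0.99 (SE 0.55), and they were picked out after their values were seen. These genes reached the filter's level of 0.545 CPM in every vehicle library but not in every RvD1 library. Their lowest RvD1 values were 0.543, 0.381, and 0.178 CPM. Cybb nearly touched, at 0.721 (RvD1) against 0.743 CPM (vehicle). Of the 18 genes, 4 were lower with RvD1 without overlap, as were 4.84% of all genes tested. Nothing is read from this share. In the most abundant genes of the list the groups overlapped. Gpnmb was at 12.1 ± 3.90 TPM under RvD1 against 12.4 ± 1.64 TPM under vehicle (SD, n = 3 each). The chemokine gene Pf4 was at 7.10 ± 3.77 and 9.44 ± 2.32 TPM (SD, n = 3 each). The summed level of the list was 76.4, 48.7, and 47.1 CPM (RvD1) against 66.7, 55.2, and 71.5 CPM (vehicle), with the highest value in RvD1 replicate 1. Spi1 had between 6 and 8 counts in each library and did not reach the filter.

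Genes shared by leukocytes were present at similarly low levels. Ptprc, which encodes CD45, had 16, 6, and 24 counts (RvD1) against 22, 8, and 25 (vehicle). Itgam, which encodes CD11b, had 9, 24, and 8 counts (RvD1) against 16, 9, and 16 (vehicle). Transcripts of both antigens that the gate excludes were thus detected in all 6 libraries, and their groups overlapped. Of 12 pan-leukocyte genes 7 passed the filter, none was called, and all 7 had negative log2 fold changes with a median of -0.53. Those with the highest TPM were Laptm5, Lcp1, and Coro1a, with log2 fold changes of -0.34 (SE 0.21), -0.85 (SE 0.32), and -0.63 (SE 0.52). The list summed to 11.8, 15.2, and 20.1 CPM (RvD1) against 24.8, 17.7, and 29.7 CPM (vehicle). Here RvD1 replicate 3 was the highest of its group, unlike in the macrophage genes. The part of other leukocytes in the differences of the 10 genes was not tested.

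Markers of other leukocytes were mostly at 0 or at low counts. Of 10 neutrophil markers none passed the filter, and S100a9, Ly6g, Elane, Ltf, and Retnlg had 0 counts in every library. The others with the highest TPM were S100a8, Mpo, and Camp, with at most 8, 6, and 5 counts in a library. The receptor gene Cxcr2 had more counts, from 1.02 to 10.23 in all 6 libraries. Csf3r, also a receptor gene, had 10 counts in vehicle replicate 3 and from 0 to 3 in the other libraries. Cxcr2 and Csf3r were named after their values were seen. Of 9 lymphocyte markers, Cd3d, Nkg7, and Klrb1c were at 0 in every library, and Cd3e and Cd3g had at most 3 and 5 counts. Cd79a alone passed the filter, with a log2 fold change of 0.51 (SE 0.58). Its counts were 39, 26, and 12 (RvD1) against 23, 10, and 7 (vehicle), within the range of Ms4a7, from 5 to 40. MHC class II genes, which macrophages share with B cells and dendritic cells, had 4 of 7 genes tested, none called, 2 in each direction, and a median log2 fold change of 0.02. H2-Ab1, H2-Eb1, and Cd74 led this list, with log2 fold changes of -0.49 (SE 0.40), 0.44 (SE 0.39), and -0.07 (SE 0.73).

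Complement genes other than C1q were compared as well. Of 10 tested, none was called, 8 had a positive log2 fold change, and the median was 0.56. The list summed to 445, 132, and 140 CPM (RvD1) against 190, 149, and 120 CPM (vehicle). RvD1 replicate 1 was thus far above every other library, and RvD1 replicates 2 and 3 lay inside the range of the vehicle libraries. C1s1, the gene of a complement protease, was at 33.5, 19.0, and 22.2 CPM (RvD1) against 13.6, 15.0, and 16.6 CPM (vehicle). All RvD1 libraries lay above all vehicle libraries (log2 fold change 0.72, SE 0.21, with an adjusted p of 0.971 in edgeR). Serping1, the gene of the C1 inhibitor, was highest in RvD1 replicate 1, at 203 CPM, against 54.8 to 97.3 CPM in the other 5 libraries. Genes of the lysosome that all cells use had differences near 0: of 14 tested none was called, 7 were negative and 7 positive, and the median was 0.04. Ctsl, Ctsb, and Lamp1, the most abundant of these, had log2 fold changes of -0.16 (SE 0.12), 0.10 (SE 0.17), and -0.00 (SE 0.09).

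**Figure D4:**
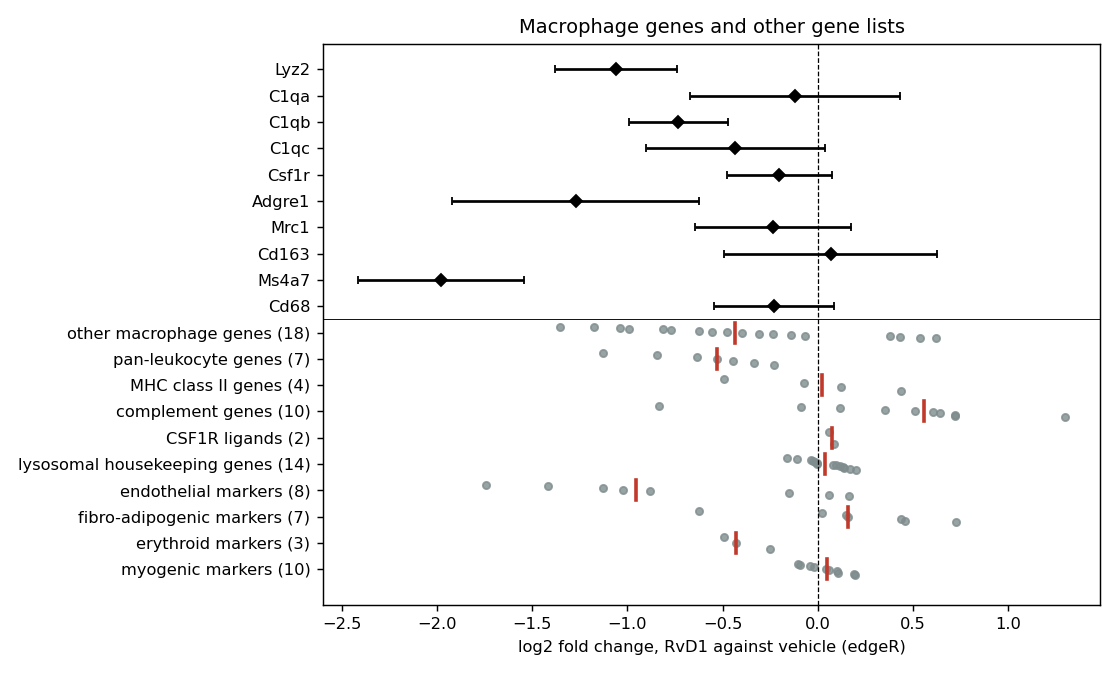
Log2 fold change, RvD1 against vehicle, of the 10 macrophage genes (diamonds with bars of 1 SE, top) and of the tested genes of 10 other lists (gray points, number of genes in parentheses, red line at the median). The macrophage genes extend from -1.98 for Ms4a7 to 0.07 for Cd163, and lysosomal and myogenic genes lie close to 0.

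Markers of other cell types in the muscle differed between libraries as well. Of 8 endothelial markers, all tested, none was called, 6 had a negative log2 fold change, 4 of them below -1, and the median was -0.95. Pecam1, which encodes CD31, had 53, 76, and 2 counts (RvD1) against 95, 22, and 132 (vehicle), with a log2 fold change of -1.42 (SE 0.82). The endothelial sum of 29.4, 17.8, and 14.1 CPM (RvD1) against 30.1, 13.05, and 36.3 CPM (vehicle) was highest in vehicle replicate 3 and low in RvD1 replicate 3, as was the sum of the macrophage genes. The most abundant of these markers, Esam and Tek, had log2 fold changes of 0.06 (SE 0.35) and 0.17 (SE 0.41). Of 8 fibro-adipogenic markers 7 were tested and none was called. Of these, 6 had a positive and 1 a negative log2 fold change, with a median of 0.16. The fibro-adipogenic sum was 604, 277, and 394 CPM (RvD1) against 304, 319, and 386 CPM (vehicle). Ly6a, the gene of the gate antigen Sca-1, had a log2 fold change of -0.62 (SE 0.20) without overlap of the groups, and Dcn and Lum had 0.46 (SE 0.26) and 0.02 (SE 0.29). Of 6 erythroid markers the 3 tested were Hba-a1, Hba-a2, and Hbb-bs, with log2 fold changes of -0.43 (SE 0.58), -0.49 (SE 0.66), and -0.25 (SE 0.86). The erythroid sum ranged from 3.08 CPM in RvD1 replicate 1 to 30.9 CPM in RvD1 replicate 2. Of the 10 myogenic markers none was called, the median was 0.05, and Myog, Des, and Chrna1 had log2 fold changes of 0.20 (SE 0.16), -0.10 (SE 0.12), and -0.10 (SE 0.11). The part of these other cells in the values of the macrophage genes was not tested.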

How the data were processed

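RNA was measured in FACS-sorted MuSCs of 3 RvD1-treated and 3 vehicle-treated mice. Per the labels and the study's methods, the authors made cDNA with SMART-Seq v4 and libraries with Nextera XT, sequenced 76-bp single-ended reads, aligned these to mm10 with STAR 2.5.0a, and quantified genes with RSEM. The methods give 10 ng of RNA as input and the labels 1 ng. The deposited expected counts are estimates per gene that the authors did not scale for depth, and the deposited TPM values are estimates that the authors divided by transcript length and brought to the same total in each library. Deposited FPKM values were not used. Treatment and replicate number in the column names gave the mouse, and 1 stray header line was removed.

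Expected counts were rounded and tested with edgeR 4.0.16 in R 4.3.3 (TMM factors, filterByExpr by group, quasi-likelihood test) over all genes, with Benjamini-Hochberg adjustment and a threshold of 0.05. The design has no covariates. P values cover the spread between separate mice. Log2 fold changes and SE come from this fit, and CPM was computed from the counts as deposited. Gene positions came from GENCODE M21 on GRCm38, and the promoters came from RefSeq. The scripts were tested on simulated data.

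The 10 genes and all gene lists were chosen with earlier results of these data known. The genes named in the text are the 10, the 3 with the highest mean TPM of each other list, Ptprc, Itgam, Csf1, Il34, and the 5 genes most correlated with the summed level. Tyrobp, Fcgr3, Cybb, Cxcr2, Csf3r, Spi1, Lyz1, the listed genes at 0 counts in every library, and the genes called under another setting were named outside this rule. A gene that the rule covers is not reported here. Alternatives were DESeq2 1.42.0, limma 3.58.1 voom without and with 1 surrogate variable removed (sva 3.50.0, the study's procedure), RLE factors, library totals, no filter, log2(TPM) with pseudocounts of 1 and 0.1, a replicate block, and each library left out. Leaving out Lyz2 and keeping only genes whose group means both reached the filter's level were added after seeing the data. The same replicate number belongs to different animals in each group, and whether it marks a shared batch is not known.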

Additional observations from a re-analysis of the deposited data

How the results depend on the processing

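Against 0 genes past the threshold in the edgeR fit, 12 were called without a filter on low counts (1700047I17Rik2, Gm10163, Gm13370, Gm14416, Gm20425, Gm2274, Gm4294, Gm45507, Lyz2, Mmp19, Neat1, and Sele) and 1, Snord32a, on log2(TPM + 0.1). Leaving out single libraries gave 0 to 1 genes, the latter being Pagr1a without RvD1 replicate 3. The median log2 fold change of the 10 macrophage genes, -0.33, became -0.73 without RvD1 replicate 1 and, at the other end of the leave-one-out range, -0.25 without RvD1 replicate 3, and was -0.23 when Ms4a7, whose mean with RvD1 is under the filter's level, was left out. The median of the other macrophage genes, -0.44, was -0.10 on log2(TPM + 1), where Ms4a7 was at -1.10 and C1qb at -0.52, and lay between -0.65 and -0.19 when single libraries were left out. The number of macrophage genes with a negative difference, 9, ranged from 7 to 10 when single libraries were left out and was 10 with limma-voom, where Cd163 turned negative. The difference in summed log2 level stayed between -1.07 and -0.60 when single libraries were left out. Averaged within replicate numbers this difference is -0.79 by arithmetic, since each number occurs once in each group, so the value is no separate check. In edgeR a replicate block gave 0 genes past the threshold and 896 at an unadjusted p under 0.05. Deviations from the group means correlated at 0.31, -0.001, and 0.13 between same-numbered mice. Between differently numbered mice these correlations ran from -0.25 to 0.17, so whether a number marks a batch is not settled. The causes of the changes between settings were not tested. Apart from Lyz2, a gene had between 2 and 157 counts in a library, and this depth limits the precision of each value.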
